A study of Mus musculus with 16 samples.

Results

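Ly-6C and Ly-6G are surface proteins of the mouse Ly6 family. They were measured with DNA-tagged antibodies in 1 library of LARRY mature immune cells from bone marrow and spleen (BM+spleen), as 2 of the 15 tags with UMIs in that library. A UMI (unique molecular identifier) marks 1 tag molecule. Cells with at least 100 tag UMIs entered, which were 5359 of the 7385 cells of the library and part of the 95930 cells of the 16 libraries of the series. The level of a tag was its share of all tag UMIs of the cell. The tag table of the companion library, LARRY mature myeloid cells from bone marrow and peripheral blood (BM+PB), lists 127 tags and neither Ly-6C nor Ly-6G, so levels of both are described in BM+spleen alone and an agreement between libraries could not be computed.

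The study read DNA methylation in single mouse cells by scTAM-seq, in which a restriction enzyme cuts unmethylated sites before a fixed panel of 663 amplicons is amplified, so a read marks a methylated CpG. LARRY denotes lentiviral barcodes that mark the descendants of single stem cells. The titles of the libraries listed next all name LARRY, and whether their cells carry such barcodes was not checked. The libraries used are mature immune cells of BM+spleen, mature myeloid cells of BM+PB, mature myeloid cells of lung, endothelial cells of lung, and bone marrow of 4 mice of the LARRY main experiment. The labels give neither age nor strain nor the number of mice behind the BM+spleen, BM+PB and lung libraries, and amplicons are known by panel identifiers only.

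Ly-6 proteins are held in the membrane by a lipid anchor. Ly-6C is high on classical monocytes and is also found on neutrophils, plasmacytoid dendritic cells and some T cells, while Ly-6G is in mouse the usual marker of neutrophils. Both are read together with CD11b, an integrin subunit of myeloid cells, and the pair is commonly used to separate monocytes (Ly-6C high, Ly-6G low) from neutrophils (Ly-6G high).

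With 1 library per cell population there is no replicate check of any value below. Cells are not replicates, so no p-value is given, and intervals are 95% exact binomial intervals that cover counting error only. The 5359 cells had a median of 180 tag UMIs, with 25% of cells at or below 137 and 25% at or above 252, and a median of 23640 reads. BM+spleen shared 6 to 40 cell barcodes with each of the other libraries (16 with BM+PB), which is 0.0812 to 0.542% of its cells. The 14 lung myeloid and 27 lung endothelial barcodes it shared lie within that range. Tags of BM+spleen outside the pair served to place the cells. CD115, the receptor of the monocyte growth factor CSF1, was at or near 0 with UMIs in 3 cells, and each of the other tags had UMIs in at least 99.65% of cells.

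Ly-6C had the highest median share per cell of the 15 tags. By summed UMIs over all 7385 cells Ly-6G was higher, with 351671 Ly-6G against 266000 Ly-6C UMIs. The Ly-6C share of tag UMIs had a median of 17.4%, with 14.5% and 20.6% as the bounds of the lower and upper 25% of cells. It was 6.86% at the 5th and 29.1% at the 95th percentile, with extremes of 1.77% and 90%. The median cell held 32 Ly-6C UMIs. All 5359 cells held at least 1 (100%, interval 99.93 to 100%). A share above 30% was seen in 221 cells.

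Ly-6G was low in most cells and very high in a few. Its median share was 3.67%, with 2.52% and 5.35% as the bounds of the lower and upper 25% of cells, 1.04% at the 5th and 9.9% at the 95th percentile, and 67.7% at the 99th percentile. The median cell held 7 Ly-6G UMIs, and 99.51% of cells held at least 1 (interval 99.29 to 99.68%). A share above 10% was seen in 264 cells and a share above 30% in 112.

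A UMI of either tag did not single out cells, because tags of B, T and NK cells were found as widely. NK-1.1, a natural killer cell protein, had UMIs in 99.94% of the same cells. In the 5021 cells in which no tag held over 50% of UMIs, Ly-6C made up 18.4% and Ly-6G 4.89% of tag UMIs. In 131073 barcodes of the library that were not cells and held 10 to 99 tag UMIs, these shares were 16.5% and 4.55%. After these filters, cells and non-cell barcodes had nearly the same share of both tags, and presence of a UMI was read as background here. Over all cells and all non-cell barcodes, Ly-6C made up 13.5% and 13.8% of tag UMIs. Ly-6G made up 17.9% and 6.89%, so without the filters its shares were not alike.

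The spread between cells exceeded counting error for both tags. Among the same 5021 cells the Ly-6C share had an SD of 5.4 points, against 2.96 points that sampling of UMIs would give, a ratio of 1.83. The Ly-6G share had an SD of 3.88 points against 1.65, a ratio of 2.35, which was the highest of the 15 tags. CD170 (Siglec-F, an eosinophil and alveolar macrophage lectin) followed at 2.28 and the IgE receptor chain FceRIa at 2.02. CD11b was at 1.42, and CD3 and NK-1.1 were at 1.11 and 1.08, close to counting error. An SD is sensitive to a few high cells. These SDs include cells in which a tag held up to 50% of UMIs, and how far such cells set this order was not tested.

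**Figure D1:**
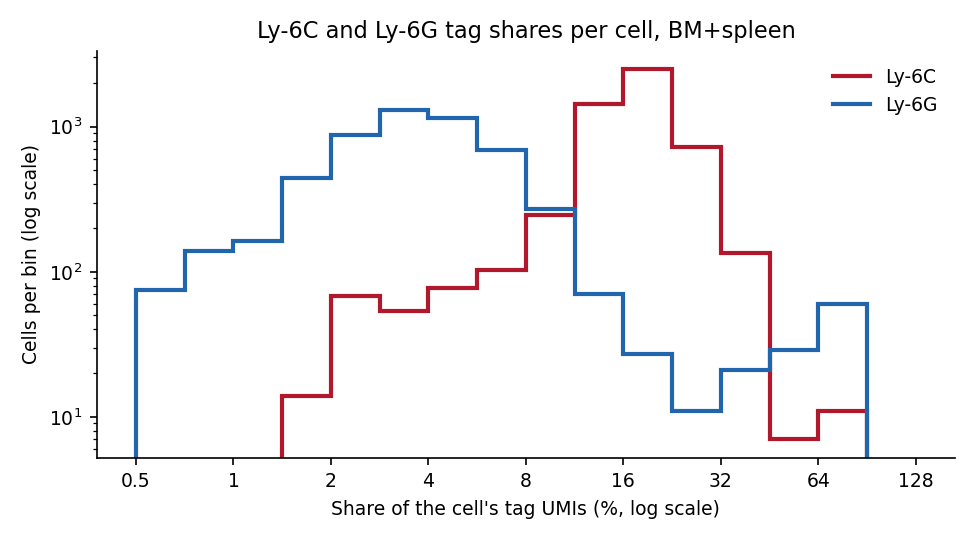
Number of BM+spleen cells (log scale) by the share of tag UMIs held by Ly-6C or Ly-6G (percent, log scale), 5359 cells. Ly-6C forms 1 peak around its median of 17.4%. Ly-6G peaks around its median of 3.67% and has a separate group of cells above 32%. The 39 cells below the lowest bin of Ly-6G are not drawn.

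In 338 cells (6.31%) a single tag held over 50% of all tag UMIs. Ly-6G did so in 83 of them, with a median share of 78.1%, and Ly-6C in 14, with a median share of 68.3%. These cells also held many more UMIs: the median was 1695 in the Ly-6G cells and 770 in the Ly-6C cells, against 175 in cells with no such tag. Their reads did not stand out in the same way, with medians of 22105 in the Ly-6G cells and 25203 in the Ly-6C cells, against 23610.

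Once the leading tag was taken out, CD11b and CD45R took shares close to those in other cells. CD11b held a median of 11.7% of the remaining UMIs in Ly-6G cells, against 11% in cells with no leading tag. In Ly-6C cells it held 12.7%, against 13%. CD45R held 4.14% in Ly-6G cells, against 4.09%, and 4.62% in Ly-6C cells, against 4.8%. The other Ly-6 tag differed more: Ly-6G held 5.85% in Ly-6C cells, against 4.62%, and Ly-6C held 17.1% in Ly-6G cells, against 18.5%. Other tags led cells in the same way, among them CD170 in 92, FceRIa in 45, CD8 in 40 and CD4 in 22 cells. The cause of these high counts was not tested. Results that rest on them are given below with and without them.

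Cells high in Ly-6C were seldom high in Ly-6G. Of cells in the upper 25% of Ly-6C, 13.1% were also in the upper 25% of Ly-6G and 29.6% in its lower 25%. Of cells in the lower 25% of Ly-6C, 32.4% were in the upper 25% of Ly-6G and 32.3% in its lower 25%. The rank correlation of the shares given total tag UMIs was -0.121 across cells, and -0.176 without cells led by 1 tag. Shares of a cell sum to 100%, which by itself pushes such correlations below 0.

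The Ly-6G share was higher in cells high in CD11b, and the Ly-6C share was not. The rank correlation of Ly-6G with CD11b was 0.19, and 0.162 without cells led by 1 tag. That was the highest of its 14 values, ahead of the macrophage tag F4/80 at 0.0207. In the 10% of cells with the largest CD11b share, the median Ly-6G share was 4.92%, against 3.67% in all cells. Ly-6C had 0.0251 with CD11b, and -0.046 without cells led by 1 tag. Its median in the same CD11b-high cells was 16.7%, against 17.4% in all cells.

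Ly-6C medians were below that of all cells in cells high for any other tag that had a top 10%, by the most for CD170 and Ly-6G. CD115, with UMIs in 3 cells, could not set a top 10% apart. The lowest rank correlations of Ly-6C were with Ly-6G, with CD170 (-0.108) and with CD4, a helper T cell protein (-0.0752). Its median share was 14.6% in the 10% of cells with the largest CD170 share and 15.9% in those with the largest CD4 share, against 17.4% in all cells. It was 14.8% in those with the largest Ly-6G share and 16% in those with the largest share of CD45R, the B220 form of CD45 on B cells. The tags CD3, of T cells, and NK-1.1 had rank correlations of 0.00913 and 0.00773 with Ly-6C, and medians of 16.9% and 17% in the cells high for them. The lowest values of Ly-6G were with Ly-6C, CD170 (-0.0825) and CD8, a killer T cell protein (-0.0511), and its median in CD8-high cells was 3.24%, against 3.67% in all cells. All of these correlations are weak, and all cells come from 1 library.

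Cells were then grouped by their amplicon calls alone, with no tag used, into 14 clusters numbered by size. A cluster is called by its number and tags only and is given no cell type name. The 338 cells led by 1 tag are left out of the levels that follow.

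The clusters highest in Ly-6C were not those highest in Ly-6G. Cluster 12 (197 cells) had a median Ly-6C share of 23.5% and cluster 8 (411 cells) one of 21.9%, with Ly-6G medians of 3.22% and 3.14%. Cluster 10 followed in Ly-6C at 18.9%. Cells among the top 10% for Ly-6C made up 36.6% of cluster 12 and 29.8% of cluster 8. Among the top 10% for Ly-6G were 2.69% of the cells of cluster 12 and 3.11% of those of cluster 8.

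Ly-6G was highest in clusters 5, 1 and 2, with medians of 4.52%, 4.37% and 4.37% and Ly-6C medians of 17.8%, 18% and 17.7%. Cluster 1, the largest with 844 cells, also had the highest pooled CD11b share at 13.3%, and it held 44 of the 83 cells led by Ly-6G. Cluster 4 held another 16 of them. In cluster 10, 16.4% of cells were among the top 10% for Ly-6G, and 18.3% among the top 10% for Ly-6C, so the division between the tags was not complete.

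Clusters with the largest shares of lymphocyte tags had Ly-6C medians below that of the library without cells led by 1 tag, 17.69%, and were split in Ly-6G. Clusters 4, 3 and 14 had the largest CD45R shares (6.19%, 6.12% and 5.84% of pooled UMIs), cluster 7 the largest CD8 share (9.51%) and cluster 11 the largest CD4 share (6.35%). Ly-6C medians of clusters 3, 14, 7 and 11 were 16.7%, 15.8%, 17.5% and 16.8%, and their Ly-6G medians 3.19%, 3.33%, 3.16% and 3.22%. Cluster 4 had a Ly-6C median of 16.9% and a Ly-6G median of 4.04%, above the 3.731% of the library without cells led by 1 tag. Cluster 6, with 7.79% CD8 and 5.23% CD4 of pooled UMIs, had 17.3% and 3.76%. In clusters 4 and 6 a single tag led 11.2% and 11.4% of cells, more than in any other cluster. Over all their cells, they also had the highest medians of amplicons detected (497 and 505), reads (26609 and 27555) and tag UMIs (204 and 200). Cluster 4 also had the largest CD170 share, 10.8% of pooled UMIs.

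Neighbours in the order of cluster medians could not be told apart by the spread of their cells. For Ly-6C, 50% of the cells of cluster 12 lay between 18% and 28.3%, of cluster 8 between 17.1% and 26.6%, and of cluster 14 between 14% and 17.7%. The middle ranges of clusters 12 and 14 did not overlap, while those of clusters 8 and 10 did. Clusters took up 7.78% of the variance of Ly-6C ranks and 7.43% of that of Ly-6G ranks. For CD11b the value was 18.4%, for CD45R 16.5%, for CD4 8.06% and for NK-1.1 1.3%. With coarser clustering into 10 clusters, the highest Ly-6C median was 18.9% and the shares of rank variance were 4.63% for Ly-6C and 4.31% for Ly-6G.

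**Figure D2:**
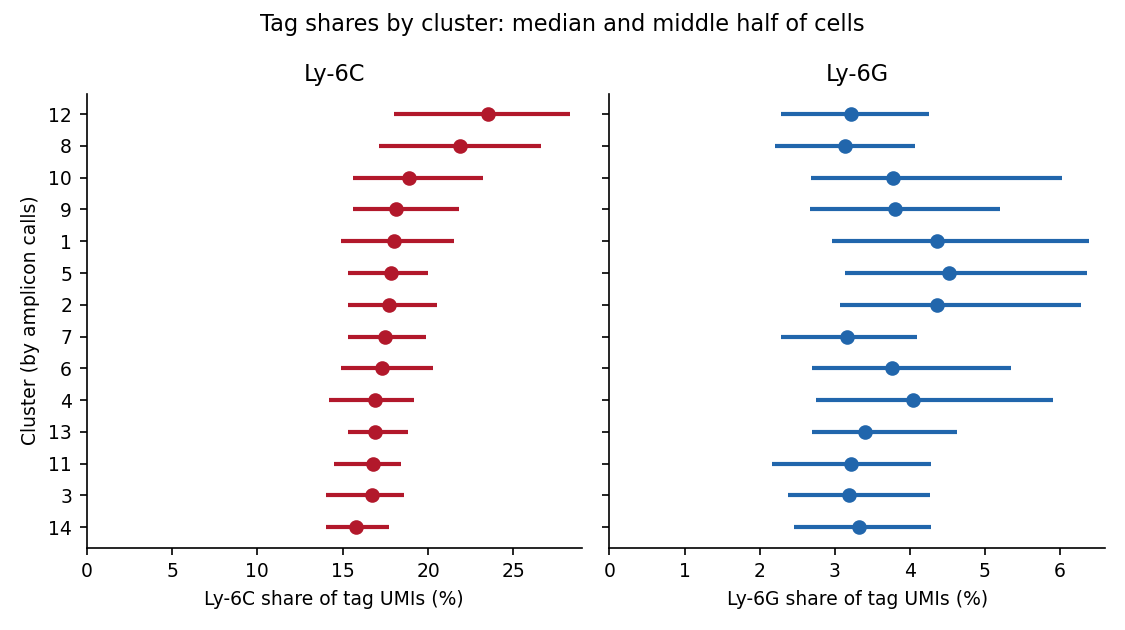
Share of tag UMIs (percent) held by Ly-6C (left) and Ly-6G (right) in 14 clusters of BM+spleen cells made from amplicon calls, ordered by Ly-6C. Points are medians and lines span the 25th to the 75th percentile of cells with no tag over 50%. Clusters 12 and 8 are highest for Ly-6C and among the lowest for Ly-6G, while clusters 5, 1 and 2 are highest for Ly-6G.

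The association of each tag with methylation was measured for 548 amplicons read in 2 to 98% of cells of both BM+spleen and BM+PB. For each amplicon, the call (at least 1 read) was correlated across cells with the rank of the tag share, given the reads and the total tag UMIs of the cell. A partial r of 0.1 or more in size was counted. Such values are small, and they describe 1 library.

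Ly-6C went mostly with lower methylation. It had 3 positive (0.547%) and 37 negative amplicons (6.75%), 7.3% in all, with r between -0.181 and 0.142. Ly-6G was balanced, with 17 positive (3.1%) and 19 negative amplicons (3.47%), 6.57% in all, with r between -0.194 and 0.174. For the 13 other tags together, 254 of 7124 pairs passed (3.57%), 2.32% of pairs with a positive and 1.25% with a negative value. CD11b had 43 positive and 55 negative amplicons, CD45R 50 and 17, CD4 43 and 8, and the stem and T cell protein Sca-1 26 and 1. NK-1.1, CD3, F4/80, CD11c, CD170, FceRIa and CD115 had 0.

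The share of all tested amplicons methylated per cell was only weakly related to any tag. Its partial rank correlation was -0.0892 with Ly-6C and 0.00834 with Ly-6G, and without cells led by 1 tag -0.0977 and 0.00116. It was 0.121 with CD45R, 0.079 with CD4 and 0.0108 with CD11b. Tags that passed 0.1 at no amplicon also had negative values, -0.0526 for CD170, -0.05 for NK-1.1 and -0.0468 for CD3.

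**Figure D3:**
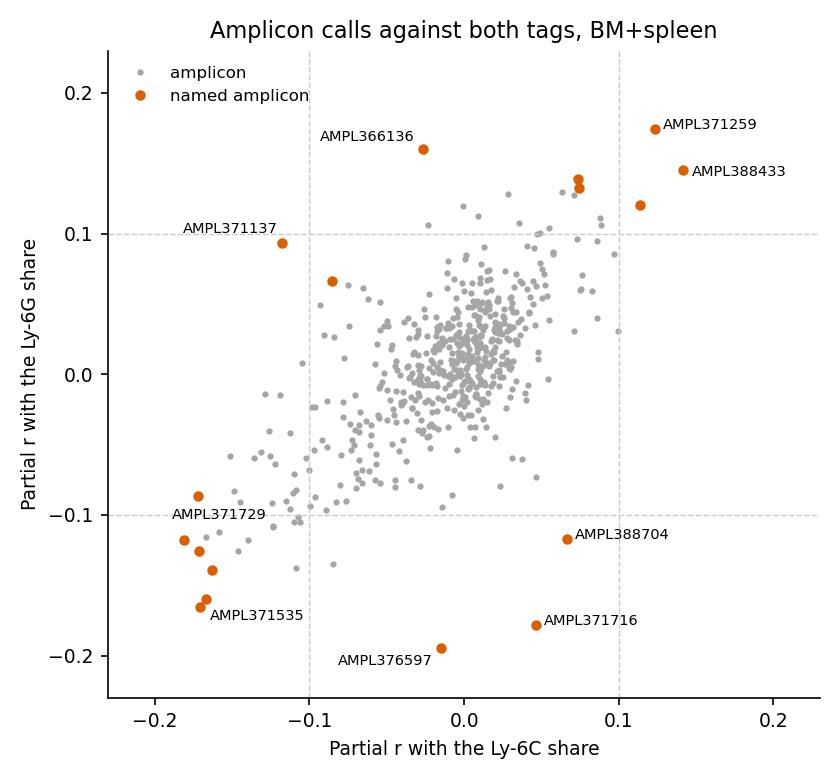
Partial correlation of each of 548 amplicon calls with the Ly-6C share (x) and with the Ly-6G share (y) across 5359 BM+spleen cells. Orange points are the 17 amplicons described in the text, and dashed lines stand at 0.1 and -0.1. No amplicon passes 0.2 in size for either tag, and AMPL376597 and AMPL371716 are below -0.1 for Ly-6G and not for Ly-6C.

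AMPL371729 had the most negative value for Ly-6C, -0.181. It was read in 33.6% of cells in the upper 25% of Ly-6C (interval 31.1 to 36.2%) and in 57.7% of cells in the lower 25% (55.1 to 60.4%). For Ly-6G its r was -0.117 and its shares were 39.9% and 56.7%. Median reads were 23631 in the upper and 23665 in the lower 25% of Ly-6C. These cells differed in other ways, with medians of 172 and 212 tag UMIs and of 423 and 441 amplicons detected, and the percentages of cells with a read are not adjusted for either.

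Several amplicons followed both tags. AMPL371535 had r of -0.171 with Ly-6C and -0.166 with Ly-6G, and was read in 19.1% of cells in the upper 25% of Ly-6C and 41.3% in the lower 25%. By Ly-6G its shares were 20.7% and 42.6%. AMPL365901 was much alike, at -0.167 and -0.160. Both also had negative r with CD11b (-0.286 and -0.262) and positive r with CD45R (0.188 and 0.216). AMPL371668 followed at -0.163 with Ly-6C and -0.139 with Ly-6G, and AMPL365828 at -0.171 and -0.126. AMPL388455, at -0.172 with Ly-6C, had -0.087 with Ly-6G.

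On the positive side, AMPL388433 had the largest r with Ly-6C, 0.142, and 0.145 with Ly-6G. It was read in 86.2% of cells in the upper 25% of Ly-6C (84.2 to 88%) and in 71.4% in the lower 25% (68.9 to 73.8%). AMPL371259 had the largest r with Ly-6G, 0.174, and 0.123 with Ly-6C. It was read in 81% of cells in the upper 25% of Ly-6G (78.7 to 83%) and in 58.1% in the lower 25% (55.4 to 60.7%). AMPL371524 was the last of the 3 positive for Ly-6C, at 0.114, with 0.120 for Ly-6G. These 3 had r of 0.207 to 0.291 with CD11b, larger than with either Ly-6 tag.

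The pair parted at a few amplicons. AMPL376597 had the most negative r with Ly-6G, -0.194, and was read in 52.4% of cells in the upper 25% of Ly-6G (49.7 to 55.1%) and in 78.3% in the lower 25% (76 to 80.4%). By Ly-6C its r was -0.015, with 69.6% in the upper and 71.5% in the lower 25%. AMPL371716 had -0.178 with Ly-6G and 0.046 with Ly-6C. By Ly-6G it was read in 51.3% of upper and 74.9% of lower cells, and by Ly-6C in 72.3% and 67.7%. AMPL388704 had -0.117 with Ly-6G and 0.066 with Ly-6C. At all 3, cells high in Ly-6G were less often methylated and the Ly-6C difference was at most 6.53 points. Their r with CD11b was also negative, at -0.214, -0.135 and -0.073.

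AMPL366136 was positive for Ly-6G and not for Ly-6C, at 0.160 against -0.026, and had 0.140 with CD11b. It was read in 27.5% of cells in the upper 25% of Ly-6G (25.2 to 30%) and in 11.6% in the lower 25% (9.95 to 13.5%), and by Ly-6C in 14.4% and 18.2%. AMPL355654 (0.138) and AMPL388483 (0.133) were also positive for Ly-6G, with 0.074 each for Ly-6C. Both had larger r with CD11b, 0.202 and 0.210. AMPL371137 had opposite signs, -0.118 with Ly-6C and 0.093 with Ly-6G. It was read in 60.7% of upper and 75.5% of lower cells by Ly-6C, and in 80% of upper and 69.1% of lower cells by Ly-6G. AMPL376910, at -0.085 and 0.066, had the same pattern below the size counted.

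**Figure D4:**
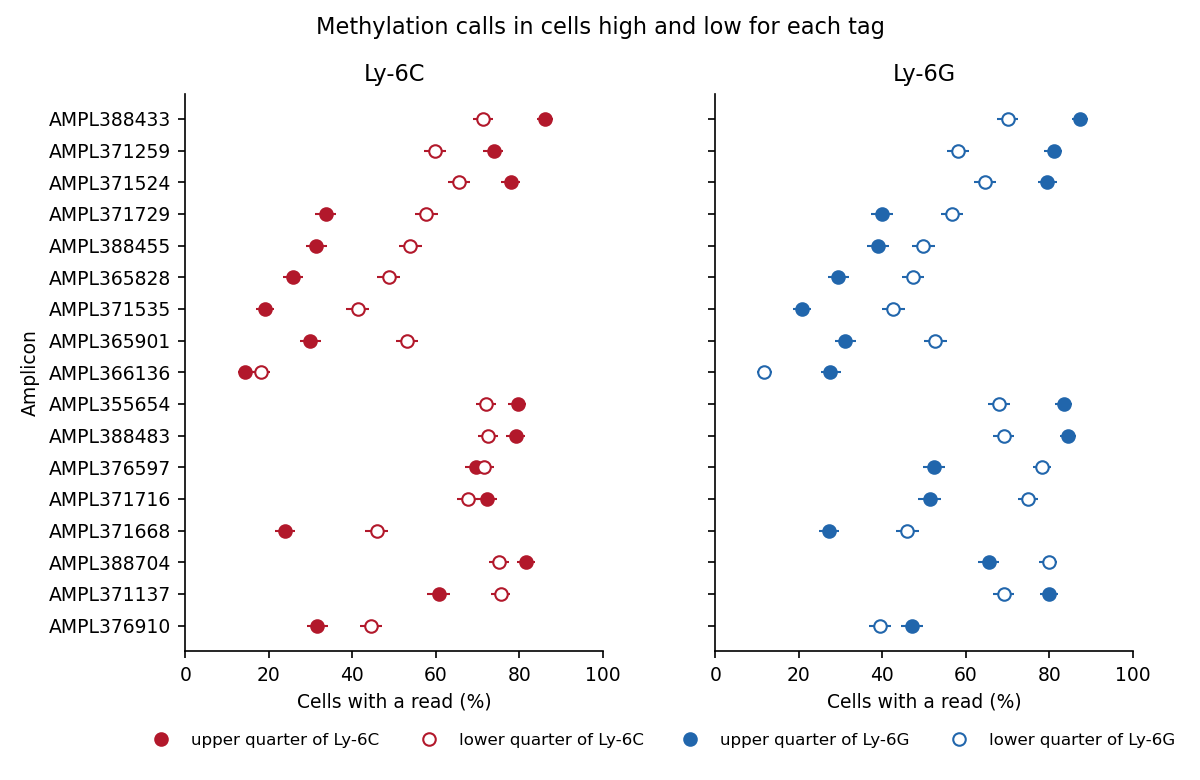
Percent of BM+spleen cells with a read at each of 17 amplicons, in the upper 25% (filled) and the lower 25% (open) of cells by Ly-6C share (left) and by Ly-6G share (right), with 95% exact binomial intervals. AMPL376597 and AMPL371716 differ by Ly-6G and hardly by Ly-6C, and AMPL371137 and AMPL376910 differ in opposite directions.

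How far these associations were those of CD11b or of the methylation clusters was looked at by adding each to the covariates. With the CD11b share added, 38 of the 40 Ly-6C amplicons still passed 0.1 with the same sign, against 12 of the 36 Ly-6G amplicons. In the 2691 cells in the upper 50% of CD11b, 7 of the 40 and 22 of the 36 did. With the cluster added, which was itself made from the amplicons, 0 of the 40 and 1 of the 36 did. Without cells led by 1 tag, 40 of 40 and 24 of 36 did. Of the 40 Ly-6C amplicons, 6 passed with the same sign in the 938 cells with at least 300 tag UMIs, where the counts were 22 positive and 6 negative, so the tilt of Ly-6C towards lower methylation did not hold in the cells with the most tag UMIs.

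Methylation in the BM+PB myeloid library, which no Ly-6 tag could sort, was compared as a separate measurement. Each of the 37 amplicons negative for Ly-6C was read in more cells of BM+spleen than of BM+PB, by a median of 19.2 percentage points. So was each of the 19 negative for Ly-6G, by a median of 23.1 points. Over all 548 amplicons, 477 were higher in BM+spleen, with a median of 6.68 points. The 17 amplicons positive for Ly-6G went the other way in 12 cases, with a median of -5.68 points for BM+spleen minus BM+PB, and the 3 positive for Ly-6C in 3. The proportion of myeloid cells and their methylation cannot be told apart in this comparison.

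Most amplicons negative for either tag were also lower in BM+PB than in the bone marrow of the 4 LARRY main mice. Of the 19 negative for Ly-6G, 1 was higher in BM+PB than the LARRY main mean, with a median of -13.2 points. Of the 37 negative for Ly-6C, 7 were higher, with a median of -8.62 points. Over all 548, 195 were higher and the median was -2.51 points. Whether the Ly-6G and Ly-6C lists differ in this was not tested. Median reads per cell were 24569 in BM+PB and 45003 to 89971 in the 4 LARRY main libraries. The percentages are not adjusted for reads, and how far reads account for these differences was not tested.

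AMPL376597 was read in 67.3% of BM+spleen, 42.9% of BM+PB, 77.7% of lung myeloid and 98.2% of lung endothelial cells, and in 79.6% ± 1.08 of LARRY main cells (SD, n = 4). AMPL371716 was read in 64.8% of BM+spleen, 38.1% of BM+PB, 74.1% of lung myeloid and 99.1% of lung endothelial cells, and in 76.3% ± 4.28 of LARRY main cells (SD, n = 4). At both, BM+PB, with fewer reads per cell, lay far below the range of the 4 LARRY main libraries, 78.1 to 80.7% and 71.9 to 80.3%. Lung myeloid cells had a median of 14693 reads and lung endothelial cells 28223, and no percentage here is adjusted for reads. AMPL371729 was read in 49.5% of BM+spleen, 30.3% of BM+PB, 52.5% of lung myeloid and 99% of lung endothelial cells, and in 56.2% ± 1.9 of LARRY main cells (SD, n = 4).

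AMPL371535, negative for both tags, was lowest in BM+PB, and AMPL388433, positive for both, was higher there than in BM+spleen. AMPL371535 was read in 32.6% of BM+spleen, 9.51% of BM+PB, 20.3% of lung myeloid and 16.7% of lung endothelial cells, and in 20.8% ± 1.07 of LARRY main cells (SD, n = 4). AMPL388433 was read in 76.7% of BM+spleen, 82.4% of BM+PB, 83% of lung myeloid and 28.6% of lung endothelial cells, and in 74.2% ± 2.76 of LARRY main cells (SD, n = 4). AMPL366136 was read in 17.3% of BM+spleen, 23.2% of BM+PB, 20.5% of lung myeloid and 17.2% of lung endothelial cells, and in 16.6% ± 1.82 of LARRY main cells (SD, n = 4).

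The amplicon profiles of Ly-6C and Ly-6G, the 548 values of r, were set beside those of the 21 tags with UMIs in at least 20% of the 3902 BM+PB cells with 100 or more tag UMIs. Amplicons are not independent, so these are descriptions with no test. The adhesion receptor CD44, the tetraspanin CD9 and the integrin CD61 of platelets and myeloid cells were nearest. Pearson's r with Ly-6C and Ly-6G was 0.60 and 0.72 for CD44, 0.55 and 0.71 for CD9, and 0.60 and 0.67 for CD61. Spearman's rho was 0.50 and 0.61, 0.50 and 0.61, and 0.53 and 0.59.

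Most other tags had negative values, the largest in size for Sca-1 and CD127 with Ly-6C and for CD48 and Sca-1 with Ly-6G. Sca-1 had a Pearson r of -0.72 with both profiles, the interleukin-7 receptor CD127 -0.63 and -0.65, and the SLAM family protein CD48 -0.48 with Ly-6C and -0.74 with Ly-6G. CD115 had -0.08 with Ly-6C and -0.41 with Ly-6G, and its own amplicon values in BM+PB were at most 0.081 in size. The 6 isotype controls, antibodies with no mouse target, also had negative values, -0.16 to -0.54 with Ly-6C and -0.26 to -0.55 with Ly-6G, although 1 of their amplicon values in all reached 0.1. Negative values up to that size were thus also given by antibodies with no target. The progenitor tags c-Kit, at -0.45 and -0.56, and CD135, at -0.44 and -0.42, were within or next to the range of the isotype controls, as were CD27, at -0.39, and CD48, both with Ly-6C. Of the 21 tags only CD44, CD9, CD61 and, at 0.36 and 0.18, CD49f were positive.

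**Figure D5:**
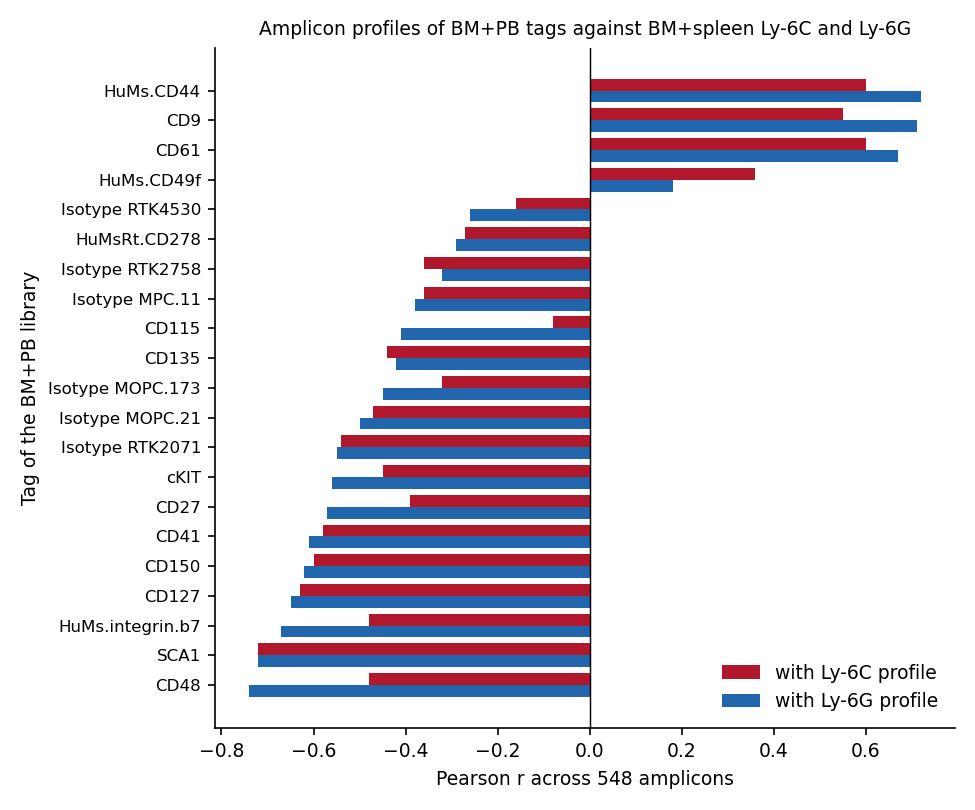
Pearson r across 548 amplicons between the amplicon profile of each of 21 BM+PB tags and the BM+spleen profiles of Ly-6C (red) and Ly-6G (blue), ordered by Ly-6G. CD44, CD9 and CD61 are at 0.55 to 0.72 for both, CD48 is at -0.74 for Ly-6G and -0.48 for Ly-6C, and the 6 isotype controls lie between -0.16 and -0.55.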

How the data were processed

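Each library was deposited by the authors as a cell-by-amplicon table of raw read counts, and where tags were used a table of UMI counts per cell barcode and tag, per the file headers. The labels' protocols name scTAM-seq on the Mission Bio Tapestri, and the submitters' processing notes name mm10. The aligner was not given in the sources used here, nor were the cell caller and read filters. Reads are not stated to be collapsed to molecules.

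Cells are those of the read table. Cells with 100 or more tag UMIs were kept, and an amplicon was called methylated with 1 or more reads. Amplicons read in 2 to 98% of cells of BM+spleen and of BM+PB (548 of 663) were used. The partial r is a Pearson correlation of the call with the ranked share after linear regression of both on log10 reads and log10 total tag UMIs. Reads per library were 214181515 for BM+spleen (median 23575 per cell) and 160218449 for BM+PB (24569). Clusters came from the first 10 principal components of the calls after regression on log10 reads, with 15 neighbours and Leiden resolution 1. Doublets were not called, but in 1 alternative the top 5% of cells by amplicons were dropped. Intervals are Clopper-Pearson at 95%. The partial correlation was tested on simulated data. Python 3.11.15, numpy 2.4.6, pandas 2.3.3, scipy 1.17.1, scikit-learn 1.9.0, leidenalg 0.10.2 and igraph 0.11.9 were used.

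The rule for named amplicons took, per tag, the 5 highest and the 5 lowest values of r past 0.1 in size, and the 3 in each direction with the largest difference in Fisher z between the tags. It was written for both libraries and applied to BM+spleen, as BM+PB lists neither tag, and gave 17 amplicons. For each member the 3 other tags with the highest and the 3 with the lowest rank correlation were looked at, and tags of cell type marker lists could be named. The members, lists and thresholds were chosen with earlier results of these data known. With 1 library per population no test was made, apart from a Dixon outlier test among the LARRY main libraries. Alternatives changed the read call, the UMI minimum, the tag measure, covariates, cells, reads and amplicons.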

Additional observations from a re-analysis of the deposited data

Results flagged for a closer look

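Ly-6C UMIs also appeared in a library that was not used for tag levels. In lung endothelial cells, which entered no comparison of tag levels, 51 Ly-6C UMIs lay in 43 of 6362 cells and 0 Ly-6G UMIs were found. The tag tables of lung endothelial and lung myeloid cells hold identical values, 627 Ly-6C and 18 Ly-6G UMIs over all barcodes. Tag UMIs were found for 6336 of the 6362 endothelial cells and for 1398 of the 5855 lung myeloid cells, so the table goes with the endothelial library and no Ly-6 level of lung myeloid cells is given. The source of the 51 UMIs was not tested. A Dixon outlier test flagged none of the 17 named amplicons among the 4 LARRY main mice. With 4 values it can flag only extreme outliers, so it does not show that these libraries are alike.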

How the results depend on the processing

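The counts of 3 positive and 37 negative amplicons for Ly-6C, and of 17 positive and 19 negative for Ly-6G, moved with many settings. Ly-6G positive counts were 8 at a call of 10 reads, 11 with no UMI minimum (12 negative), 0 with unranked shares (6 negative), 10 with tags thinned to 100 UMIs (11 negative) and 5 with CD11b as a covariate (7 negative). With at least 300 tag UMIs (938 cells) they were 22 and 6 for Ly-6C and 45 and 48 for Ly-6G. In the upper 50% of CD11b they were 0 and 7 for Ly-6C, with 7 negative for Ly-6G. Ly-6C positive counts were 5 with the centred log ratio, 1 with raw counts and 7 with reads thinned to 16675 per cell (4228 cells). Without the 5% of cells with the most tag UMIs, 5 were positive for Ly-6C and 12 negative for Ly-6G, and without cells led by 1 tag 5 and 11. With the cluster as a covariate, 0 and 0 were left for Ly-6C and 0 and 1 for Ly-6G. At a threshold of 0.05 the counts were 30 and 98 for Ly-6C and 84 and 72 for Ly-6G, and at 0.2 all 4 were 0. The settings on cells led by 1 tag, on the cluster as a covariate and on cluster resolution were chosen after seeing the data. Causes of these shifts were not tested.

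The Ly-6C median share was 17.51% with no UMI minimum, 14.36% at 300, 17% when thinned, 17.61% without the 5% of cells with the most tag UMIs and 17.69% without cells led by 1 tag. The Ly-6G median was 3.285% at 300 UMIs and 4% when thinned. Cells with a Ly-6C UMI were 99.77% with no minimum and 99.68% when thinned, and cells with a Ly-6G UMI 95.36%, 100% at 300 and 95.97% when thinned. With coarser clusters the rank variance between them was 4.63% for Ly-6C and 4.31% for Ly-6G, against 7.78% and 7.43%.

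Over the 17 named amplicons, both tags and 18 alternatives, 5 of 612 values changed sign. The 24 values past 0.1 kept it in 432 of 432 cases and stayed past 0.1 in 370. These amplicons were picked by their r in the same cells, which the alternatives reuse in whole or in part. Kept signs are thus no independent check, and dropping the amplicon filter could change none of these values. The 5 sign changes were in values near 0 with Ly-6C. AMPL366136 (-0.026) had 0.057 at 300 UMIs. AMPL376597 (-0.015) had 0.016 with unranked shares, 0.003 with raw counts, 0.016 in the upper 50% of CD11b and 0.058 with the cluster as a covariate. Of all 40 Ly-6C calls, 37 kept their sign at 300 UMIs and 37 with the cluster as a covariate, and of the 36 Ly-6G calls 36 and 35. A denominator of tags measured in both libraries was not run, because the BM+PB table lists neither member. No paired analysis was possible because each population is 1 library and no groups of libraries were compared by a test. A median of 180 tag UMIs per cell limits the precision of a Ly-6G share to a few UMIs.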
